A study of Mus musculus with 21 samples.

Results

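The 8 genes described here encode small leucine-rich proteoglycans: decorin (Dcn), biglycan (Bgn), lumican (Lum), fibromodulin (Fmod), osteoglycin (Ogn), PRELP (Prelp), asporin (Aspn) and podocan (Podn). They were chosen by symbol, and all 8 were present in each of the 21 libraries, among 23204 gene symbols in all. The libraries hold RNA of lung fibroblasts from female C57BL/6 mice carrying a Col1a2-GFP transgene, in which green fluorescent protein is driven by regulatory sequence of a collagen I gene. Cells were sorted as negative for CD45, CD31, EpCAM, CD146, Ter119 and propidium iodide and positive for GFP, so a fibroblast without transgene activity was not sampled. The 7 groups, of 3 libraries each, were untreated mice, mice given 1 dose of bleomycin (2 mg/kg) and mice given 1 dose of crystalline silica (400 mg/kg), the doses given by oropharyngeal aspiration and the lungs sampled at day 7, 14 or 63. The series describes the bleomycin model as reversible and the silica model as progressive, and its labels name no group given saline alone. All groups carried the transgene, and the untreated libraries serve every comparison with untreated, so those 6 comparisons share their controls.

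Small leucine-rich proteoglycans are secreted proteins of the extracellular matrix whose core folds into a curved stack of leucine-rich repeats. Most carry chondroitin, dermatan or keratan sulfate chains, bind to collagen fibrils and influence how thick the fibrils become. Several also bind TGF-β or other ligands, and soluble biglycan and decorin are known to engage Toll-like receptors. In lung they are products of fibroblasts in the adventitia and interstitium, and they are deposited together with fibrillar collagens.

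The genes sit partly in clusters, in the mm10 build with GENCODE vM21 gene models. On chromosome 13, Aspn (49544443-49567565) and Ogn (49608046-49624501) lie on the plus strand with Omd between them, and Ecm2 lies 11.7 kb before Aspn. On chromosome 1, Prelp (133910304-133921414, minus strand) and Fmod (134037254-134048277, plus strand) are 116 kb apart and point away from each other. Dcn (97479609-97518143) and Lum (97565128-97572703) follow each other on the plus strand of chromosome 10, 47 kb apart. Bgn lies on chromosome X (73483602-73495933, plus strand) and Podn on chromosome 4 (108014791-108096445, minus strand). The values below are per gene symbol and come from tags of RNA 3′ ends, so they do not describe coverage along a gene model.

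Promoter windows of Fmod and Prelp, and of Aspn and Ogn, are shown because these neighbours in 1 cluster had different courses after injury. Of the 8 genes, 6 had a window in the RefSeq table for GRCm38.p6 (the mm10 assembly), each running from 250 bases before to 50 bases after the start, 300 bases in all. Capitals mark matches, on either strand, to CAGAC (part of a SMAD binding element), GGAATG (bound by TEAD factors) and TATAAA (a core promoter element), and TGACTCA (bound by AP-1) was also searched and had no match in any member's window. Fmod is at chr1:134037004-134037303 (plus strand), Prelp at chr1:133921352-133921651 (minus strand), Aspn at chr13:49544193-49544492 (plus strand) and Ogn at chr13:49607765-49608064 (plus strand), each written 5′ to 3′ along the gene.
Fmod: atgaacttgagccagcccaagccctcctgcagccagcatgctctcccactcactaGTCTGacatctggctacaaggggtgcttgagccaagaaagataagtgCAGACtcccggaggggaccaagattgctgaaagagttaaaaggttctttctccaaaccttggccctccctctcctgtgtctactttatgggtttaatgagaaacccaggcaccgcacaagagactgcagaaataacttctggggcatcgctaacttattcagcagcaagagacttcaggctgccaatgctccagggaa
Prelp: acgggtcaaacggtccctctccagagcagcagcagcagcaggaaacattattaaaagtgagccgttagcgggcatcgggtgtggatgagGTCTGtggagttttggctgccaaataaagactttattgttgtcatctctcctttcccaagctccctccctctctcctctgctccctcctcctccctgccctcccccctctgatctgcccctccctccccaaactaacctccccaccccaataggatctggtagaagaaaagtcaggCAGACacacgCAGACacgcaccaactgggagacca
Aspn: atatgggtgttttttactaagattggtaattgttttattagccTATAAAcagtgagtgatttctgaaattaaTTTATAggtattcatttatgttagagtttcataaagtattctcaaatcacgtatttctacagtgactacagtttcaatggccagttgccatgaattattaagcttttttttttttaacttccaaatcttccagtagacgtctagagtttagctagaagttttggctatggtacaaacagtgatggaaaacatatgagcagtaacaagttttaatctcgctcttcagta
Ogn: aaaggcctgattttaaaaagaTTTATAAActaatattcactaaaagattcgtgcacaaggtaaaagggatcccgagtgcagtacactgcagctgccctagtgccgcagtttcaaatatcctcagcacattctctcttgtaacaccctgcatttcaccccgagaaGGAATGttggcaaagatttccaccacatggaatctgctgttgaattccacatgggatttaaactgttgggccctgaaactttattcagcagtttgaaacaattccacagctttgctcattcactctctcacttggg
The Fmod window held 2 CAGAC matches, at positions -195 and -148 from the start, and the Prelp window held 3. CAGAC occurs in 49.6% of the 32851 mouse windows of this length, so its presence in both is a description and no more. TATAAA, found in 13.6% of all windows, matched at 2 places in Aspn (positions -207 and -178) and at 2 overlapping places in Ogn (-229 and -227). None of these 4 matches lay near the start. GGAATG, found in 14.7%, matched once in Ogn, at position -86. The Bgn window held none of the 4 motifs, the first of the 2 Podn windows held none, and the second held 1 CAGAC match.

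Library totals ran from 2080636 to 4477283 counts, with a median of 3774431, and 0.981% to 2.05% of a library's counts fell on the 8 genes. Levels are given in CPM, the count scaled to a common library size after trimmed-mean scaling, and a gene was called changed at an adjusted p under 0.05 in edgeR's quasi-likelihood test over 11669 genes. Fibroblast defining genes were present in every group, with a summed level of 14339 to 37822 CPM over the 8 listed. Most of this sum was Vim (9813 to 10681 CPM in untreated), Col1a1, Col1a2 and Col3a1, and Thy1 was 0 to 3.52 CPM in untreated libraries. At bleomycin day 7, 6 of the 8 rose and 2 fell (beside 16.7% and 14.9% of all genes). Pdgfra was 129 to 140 CPM in untreated and 83.9 to 93.5 and 83.7 to 93.3 at day 7 of bleomycin and silica. Tcf21 was 151 to 190, 65.3 to 72.0 and 53.7 to 71.0 CPM in the same groups. Endothelial markers summed to 22.6 to 31.4 CPM in untreated and 8.10 to 30.6 CPM in treated libraries. These markers moved apart at bleomycin day 14. Tek went from 18.8 to 22.5 CPM in untreated libraries to 2.12 to 5.98 CPM. Plvap went from 0.468 to 1.30 CPM in untreated libraries to 8.67 to 14.1 CPM. Cdh5 was at 0 in every group except silica day 63, where it reached at most 0.788 CPM. The 3 erythroid markers in the files summed to at most 1.86 CPM. Mesothelial markers, with 6 of 9 tested, differed between groups: their sum was 520 to 649 CPM in untreated libraries, 273 to 383 and 128 to 183 at day 7 of bleomycin and silica, 390 to 444 and 407 to 528 at day 14, and 358 to 434 and 227 to 259 at day 63. Most of this sum was Upk1b (438 to 523 CPM in untreated and 183 to 200 CPM at bleomycin day 7), while Msln rose at bleomycin day 7 by 0.77 on the log2 scale and the list's median there was 0.01. Of those 6, 6 fell at silica day 7, 5 at bleomycin day 63, 3 at silica day 63 and 2 at bleomycin day 14. Over all tested genes, 20.6%, 5.48%, 12.5% and 18.5% were called lower in these comparisons with untreated. At bleomycin day 7, 1 fell and 1 rose, beside 14.9% and 16.7% of all genes. At silica day 14, 1 fell and 2 rose, beside 10.5% and 13.6%. Calb2 was at 0 in the untreated group and in both day 14 groups. Myeloid markers, with 1 of 9 tested, summed to 3.11 to 6.53 CPM in untreated libraries. Their sums were 14.5 to 23.1, 9.67 to 14.6 and 2.67 to 5.72 CPM at days 7, 14 and 63 of bleomycin. After silica they were 9.11 to 13.5, 18.0 to 32.4 and 19.2 to 23.7 CPM. Most of the sum was Tyrobp, at 2.59 to 5.78 CPM in untreated, 11.9 to 21.2 at bleomycin day 7 and 15.3 to 27.0 at silica day 14. Epithelial markers summed to 6.78 to 12.2 CPM in untreated libraries and, at day 7, to 27.3 to 33.1 after bleomycin and 20.3 to 28.3 CPM after silica. Pericyte and smooth muscle markers summed to 95.3 to 111 in untreated and 133 to 246 CPM in treated libraries. Abcc9, Kcnj8 and Des made up most of this sum and did not move together. At bleomycin day 14 Des was 68.0 to 120 CPM (14.5 to 17.1 in untreated). Abcc9 was 32.5 to 48.9 CPM there (47.1 to 59.3 in untreated). Rgs5, Mcam and Cnn1 were at 0 in untreated libraries and reached at most 1.50, 1.76 and 1.27 CPM, all at silica day 7. Lymphocyte markers summed to 3.28 to 5.02 CPM in untreated and 29.5 to 53.7 CPM in bleomycin day 7 libraries. After silica they summed to 29.8 to 72.1, 23.6 to 34.4 and 31.4 to 43.9 CPM at days 7, 14 and 63. At silica day 7 nearly all of the sum was the chemokine gene Ccl5 (29.6 to 72.1 CPM), and Cd3e, Cd3g and Cd79a were at 0. Ptprc was at 0 at bleomycin day 14. The part of these cell types in the results was not tested.

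The 8 genes did not move as a block after injury. At day 14 of bleomycin, 4 rose (Fmod, Lum, Bgn and Podn), 3 fell (Dcn, Ogn and Prelp) and Aspn was not called, where 39.3% of all tested genes were called, 20.7% higher and 18.5% lower. At day 7 of bleomycin, 2 rose and 4 fell, beside 31.6% of all genes called (16.7% higher, 14.9% lower). At day 7 of silica 2 rose and 5 fell, beside 44.1% (23.4% higher, 20.6% lower), and 1 of these 2, Bgn, was lost under most other settings. Silica day 14 had 3 higher and 1 lower, beside 24.1% of all genes (13.6% higher, 10.5% lower). Silica day 63 had 2 higher and 3 lower, beside 27.8% (15.3% higher, 12.5% lower), and bleomycin day 63 had 3 higher and 0 lower, beside 11.5% (6.02% higher, 5.48% lower). The median log2 difference over the 8 genes ran from -0.52 at silica day 7 to 0.41 at bleomycin day 14, beside 0.01 to 0.04 over all tested genes. Summed over the 8 genes, the level was 17411 to 18779 CPM in untreated libraries, 10066 to 14070 at bleomycin day 14 and 18367 to 21285 at silica day 14, a sum made up largely of Dcn.

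**Figure D1:**
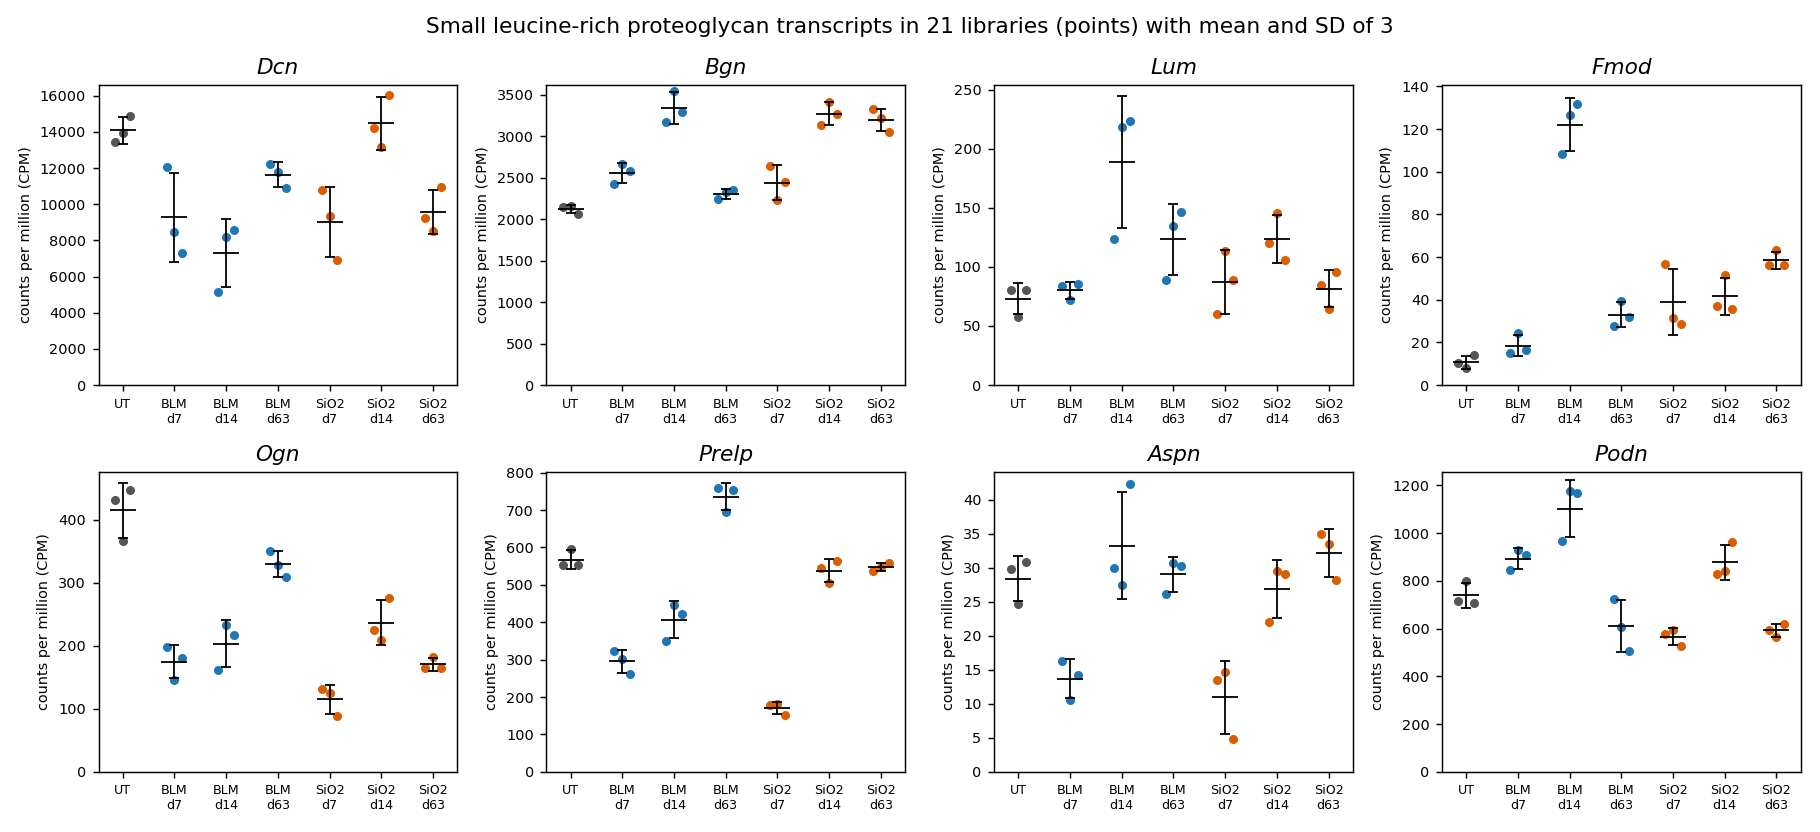
Level of each of the 8 genes (vertical axes, CPM after trimmed-mean scaling, 1 panel and 1 scale per gene) in the 7 groups (horizontal axis), with a point for each library and lines at the mean and 1 SD to each side (n = 3; UT is untreated, BLM bleomycin, SiO2 silica, d the day). Fmod is lowest in untreated (8.04 to 14.0 CPM) and highest at bleomycin day 14 (108 to 132 CPM), and Ogn is highest in untreated libraries (366 to 447 CPM).

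Decorin and biglycan are class I members with chondroitin or dermatan sulfate chains. Against untreated, Dcn was lower and Bgn higher, both called, at days 7 and 14 of bleomycin and at days 7 and 63 of silica, while from silica day 7 to day 14 both rose. Dcn, the collagen-binding proteoglycan that also binds TGF-β, stood at 13441, 13919 and 14886 CPM in the untreated libraries. It was 12050, 8438 and 7322 CPM at day 7 of bleomycin and 5157, 8176 and 8573 CPM at day 14, with all 6 libraries under the untreated ones. The log2 difference from untreated was -0.60 ± 0.16 (SE) at day 7 (adjusted p = 0.00389) and -0.95 ± 0.16 at day 14 (adjusted p = 1.77e-05). At day 63 Dcn was 12247, 11788 and 10874 CPM, again below every untreated library. That difference of -0.28 ± 0.16 was not called (adjusted p = 0.301), but was called with only the groups compared in the fit (adjusted p = 0.0238).

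After silica, Dcn was 10765, 9330 and 6917 CPM at day 7, below all untreated libraries (log2 difference -0.65 ± 0.16, adjusted p = 0.00137). At day 14 it was 14227, 13171 and 16053 CPM, overlapping the untreated libraries, and the log2 difference was 0.04 ± 0.16 (95% interval -0.30 to 0.38). At day 63 it was 9235, 8545 and 10947 CPM (-0.56 ± 0.16, adjusted p = 0.00822), and without the second silica day 63 library the adjusted p was 0.0551. Dcn at day 14 was thus higher after silica than after bleomycin by 0.99 ± 0.16 on the log2 scale (adjusted p = 3.02e-05), with no overlap between the libraries. In the order of group means, silica day 14 and untreated were the top pair and overlapped, as did each neighbouring pair from bleomycin day 63 down to bleomycin day 14.

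Bgn, which binds collagen and signals through Toll-like receptors when soluble, was 2152, 2155 and 2062 CPM in untreated libraries, the lowest group. It reached 3169, 3543 and 3295 CPM at bleomycin day 14 (log2 difference 0.65 ± 0.08, adjusted p = 2e-07). At bleomycin day 63 it was 2238, 2330 and 2348 CPM, above every untreated library, but the difference was not called (0.12 ± 0.08, adjusted p = 0.415). After silica it was 3138, 3415 and 3262 CPM at day 14 (0.62 ± 0.08, adjusted p = 1.14e-06) and still 3321, 3215 and 3050 CPM at day 63 (0.59 ± 0.08, adjusted p = 1.87e-06). The 3 groups of highest mean (bleomycin day 14, silica day 14 and silica day 63) overlapped one another and lay above all other libraries. At day 63 Bgn was higher after silica than after bleomycin by 0.47 ± 0.08 on the log2 scale (adjusted p = 0.000108).

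The day 7 differences of Bgn were small. It was 2426, 2669 and 2575 CPM after bleomycin (0.27 ± 0.08, adjusted p = 0.0135, and 0.0615 without the second bleomycin day 7 library) and 2644, 2229 and 2449 CPM after silica (0.20 ± 0.08, adjusted p = 0.0497). The silica call was lost under upper quartile scaling (log2 difference 0.12, adjusted p = 0.254) and under most other settings.

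Asporin, a class I member without the usual chains that binds collagen and TGF-β, was the least abundant of the class by counts, with 19 to 153 per library. Its level was 29.8, 24.6 and 30.9 CPM in untreated libraries, 16.2, 10.6 and 14.3 CPM at bleomycin day 7 and 13.5, 14.6 and 4.81 CPM at silica day 7. Both day 7 groups lay below every library of the other 5 groups, and Aspn fell by 1.05 ± 0.24 (adjusted p = 0.00106) and by 1.36 ± 0.24 (adjusted p = 3.07e-05) on the log2 scale. From day 14 on, no difference from untreated was called in either model: the 4 groups ran from 22.0 to 42.3 CPM, with log2 differences of -0.06 to 0.24 and overlapping libraries. From day 7 to day 14 Aspn rose by 1.29 ± 0.24 after bleomycin (adjusted p = 0.000329) and by 1.30 ± 0.24 after silica (adjusted p = 0.000132).

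**Figure D2:**
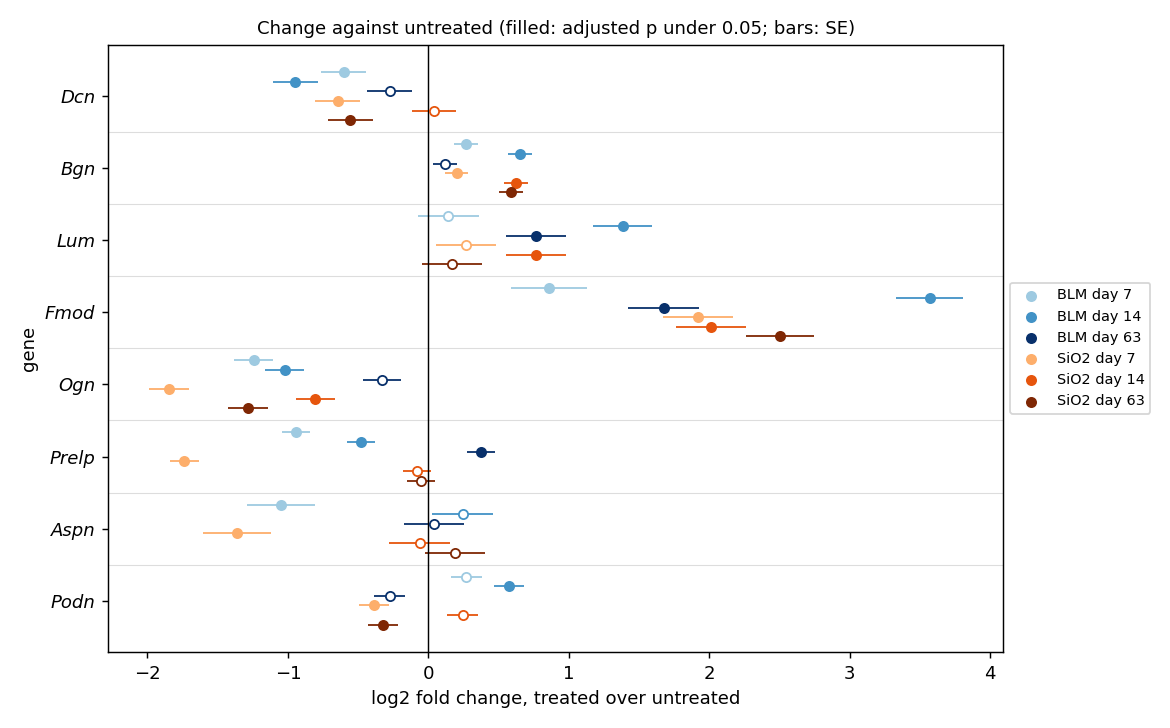
Log2 difference of each gene from untreated (horizontal axis, log2 scale) in the 6 treated groups, with points at the estimate, bars of 1 SE to each side, and filled points for an adjusted p under 0.05 in edgeR's test. Fmod lies to the right of 0 in all 6 groups, up to 3.57, and Ogn to the left in all 6, down to -1.85.

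Among the class II members, fibromodulin, a keratan sulfate proteoglycan that binds collagen I and lysyl oxidase, had the widest range of the 8 genes, with an 11.4-fold span from the lowest to the highest group mean, where the others spanned 1.57-fold (Bgn) to 4.32-fold (Prelp). Fmod was 10.1, 8.04 and 14.0 CPM in untreated libraries and 14.8, 24.3 and 16.5 CPM at bleomycin day 7. It was 108, 126 and 132 CPM at bleomycin day 14, an 11.9-fold difference from untreated in the fit (log2 difference 3.57 ± 0.24, adjusted p = 2.81e-13), and 27.6, 39.3 and 32.0 CPM at day 63 (1.67 ± 0.25, adjusted p = 3.15e-05). The bleomycin day 14 libraries lay above all 18 others. The untreated values rest on 30 to 39 counts per library, and the day 7 difference (0.86 ± 0.27, adjusted p = 0.0157) was lost without the second untreated library (adjusted p = 0.0978) or the second bleomycin day 7 library (0.144).

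After silica, Fmod was 56.9, 31.3 and 28.6 CPM at day 7, 37.1, 51.7 and 35.7 CPM at day 14 and 56.2, 63.1 and 56.1 CPM at day 63. The differences from untreated were 1.92 ± 0.25, 2.01 ± 0.25 and 2.50 ± 0.24 on the log2 scale (adjusted p = 1.85e-07, 2.96e-07 and 1.71e-09). The day 7 and day 14 libraries overlapped, and the first silica day 7 library was apart from the other two. Fmod was higher after silica than after bleomycin at day 7 (1.06 ± 0.22, adjusted p = 0.00136, and 0.67 with adjusted p = 0.0366 without that library) and at day 63 (0.83 ± 0.20, adjusted p = 0.00353). At day 14 the order was the opposite, lower after silica by 1.56 ± 0.19 (adjusted p = 4.36e-07).

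Prelp, a basic member that binds heparan sulfate and collagen, fell early in both models. It was 553, 597 and 552 CPM in untreated libraries, 322, 301 and 262 CPM at bleomycin day 7 and 177, 181 and 152 CPM at silica day 7. The decreases were 0.94 ± 0.10 (adjusted p = 1.68e-08) and 1.74 ± 0.10 on the log2 scale (adjusted p = 3.23e-14), and the silica libraries lay below all others. By day 14 it was 351, 447 and 421 CPM after bleomycin, still below untreated (-0.48 ± 0.10, adjusted p = 0.000283). After silica it was 546, 504 and 562 CPM at day 14 and 538, 548 and 558 CPM at day 63, overlapping the untreated libraries at both days, with log2 differences of -0.08 and -0.05 that were not called. Bleomycin day 63 was the only group with a mean above untreated, at 759, 694 and 754 CPM (0.37 ± 0.10, adjusted p = 0.0121), a call lost without the first untreated library (adjusted p = 0.0592) or the third bleomycin day 63 library (0.0531).

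Lumican, the keratan sulfate proteoglycan that follows Dcn on chromosome 10, had widely spread libraries within some groups. Lum was 80.8, 57.8 and 80.5 CPM in untreated libraries, 83.6, 71.6 and 85.2 CPM at bleomycin day 7, and 124, 218 and 224 CPM at day 14. The bleomycin day 14 difference was 1.38 ± 0.21 on the log2 scale (adjusted p = 3.82e-06) with no overlap, and at day 7 neither model gave a call. Lum was 89.1, 135 and 146 CPM at bleomycin day 63 (0.77 ± 0.21, adjusted p = 0.0154) and 120, 145 and 106 CPM at silica day 14 (0.77 ± 0.21, adjusted p = 0.00749). The first of these calls was lost without the second untreated library (adjusted p = 0.104) or without the second (0.0617) or the third (0.103) bleomycin day 63 library. The silica day 14 call was lost without the second untreated (0.0618) or second silica day 14 library (0.0559). At silica day 63, with 84.4, 64.4 and 95.5 CPM, the libraries overlapped the untreated ones and no difference was called.

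Osteoglycin, a class III member also known as mimecan, had a lower mean than untreated in all 6 treated groups. Ogn was 431, 366 and 447 CPM in untreated libraries, 198, 146 and 181 CPM at bleomycin day 7, 161, 233 and 217 CPM at day 14, and 351, 328 and 309.5 CPM at day 63. It fell by 1.24 ± 0.14 (adjusted p = 4.34e-08) and by 1.02 ± 0.14 (adjusted p = 6.93e-07) on the log2 scale at the first 2 times. The day 63 libraries lay below the untreated ones without overlap, but the difference of -0.33 was not called (adjusted p = 0.126). It was called with only the groups compared in the fit (adjusted p = 0.0372). Ogn was 131, 125 and 88.9 CPM at silica day 7, 225, 209 and 276 CPM at day 14, and 165, 182 and 165 CPM at day 63. These decreases were 1.85 ± 0.14, 0.81 ± 0.14 and 1.28 ± 0.14 on the log2 scale (adjusted p = 8.48e-12, 5.21e-05 and 2.3e-08), so the gene was low at day 63 of silica. The silica and bleomycin groups differed at day 63 by -0.95 ± 0.14 (adjusted p = 7.74e-06).

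Podocan, a class V member, was 714, 800 and 707 CPM in untreated libraries. Podn rose at bleomycin day 14 to 966, 1175 and 1167 CPM (0.57 ± 0.11, adjusted p = 8.57e-05). At bleomycin day 7, with 846, 928 and 906 CPM, the difference of 0.27 was not called (adjusted p = 0.0576). That day 7 difference was called with no filter on low counts (adjusted p = 0.0342), with limma-voom (0.0433) and without the second untreated library (0.0381). At day 7 of silica it was 576, 595 and 528 CPM, below untreated (-0.39 ± 0.11, adjusted p = 0.00463), and the 2 agents differed by -0.66 ± 0.11 at that day (adjusted p = 7.93e-05). At day 14 of silica it was 828, 842 and 961 CPM, above every untreated library, yet the difference of 0.24 was not called (adjusted p = 0.106). At day 63 it was 724, 607 and 504 CPM after bleomycin, overlapping untreated, and 593, 565 and 619 CPM after silica (-0.32 ± 0.11, adjusted p = 0.026). The latter call was lost without the second untreated library (adjusted p = 0.134) or the first (0.0631) or second (0.102) silica day 63 library.

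The direct comparison of silica with bleomycin asks whether the 2 models differ at the same day. At day 7, 4 of the 8 genes differed (beside 10.4% of all genes, 5.29% higher and 5.1% lower): Fmod was higher after silica, and Prelp, Podn and Ogn were lower, by 0.79 ± 0.10, 0.66 ± 0.11 and 0.60 ± 0.14 on the log2 scale. The Ogn call was lost without the third silica day 7 library (adjusted p = 0.0539). At day 14, 5 differed (beside 17.1% of all genes, 9.06% higher and 8.03% lower): Dcn and Prelp were higher after silica, the latter by 0.40 ± 0.10 (adjusted p = 0.00459, and 0.0553 without the first bleomycin day 14 library), while Fmod, Lum and Podn were lower. The Lum difference (-0.61 ± 0.20, adjusted p = 0.0317) had overlapping libraries. Both it and the Podn difference (-0.33 ± 0.11, adjusted p = 0.033) were lost when the second or the third bleomycin day 14 library, or the first silica day 14 library, was left out; Lum was lost also without the third silica day 14 library and Podn without the second. Those Lum adjusted p were 0.0842 to 0.17 and those of Podn 0.104 to 0.13. The Lum call was lost as well with DESeq2 in place of edgeR (adjusted p = 0.105), and the Podn call with only the groups compared in the fit (0.053).

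At day 63, 5 of the 8 genes differed between the agents (beside 15.6% of all genes, 9.13% higher and 6.44% lower). Bgn and Fmod were higher after silica, and Ogn, Prelp (-0.42 ± 0.10, adjusted p = 0.00278) and Lum (-0.60 ± 0.21, adjusted p = 0.0465) were lower. Lum again had overlapping libraries, and its call was lost without any 1 of 4 libraries, the second or the third of bleomycin or the first or second of silica (adjusted p 0.0877 to 0.231). It was also lost with DESeq2 (adjusted p = 0.13) or limma-voom (0.065) in place of edgeR. Aspn did not differ between agents at any day, with intervals of the log2 difference of -0.88 to 0.25, -0.77 to 0.15 and -0.30 to 0.59 at days 7, 14 and 63. Dcn at day 63 gave -0.28 ± 0.16 (95% interval -0.62 to 0.06).

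**Figure D3:**
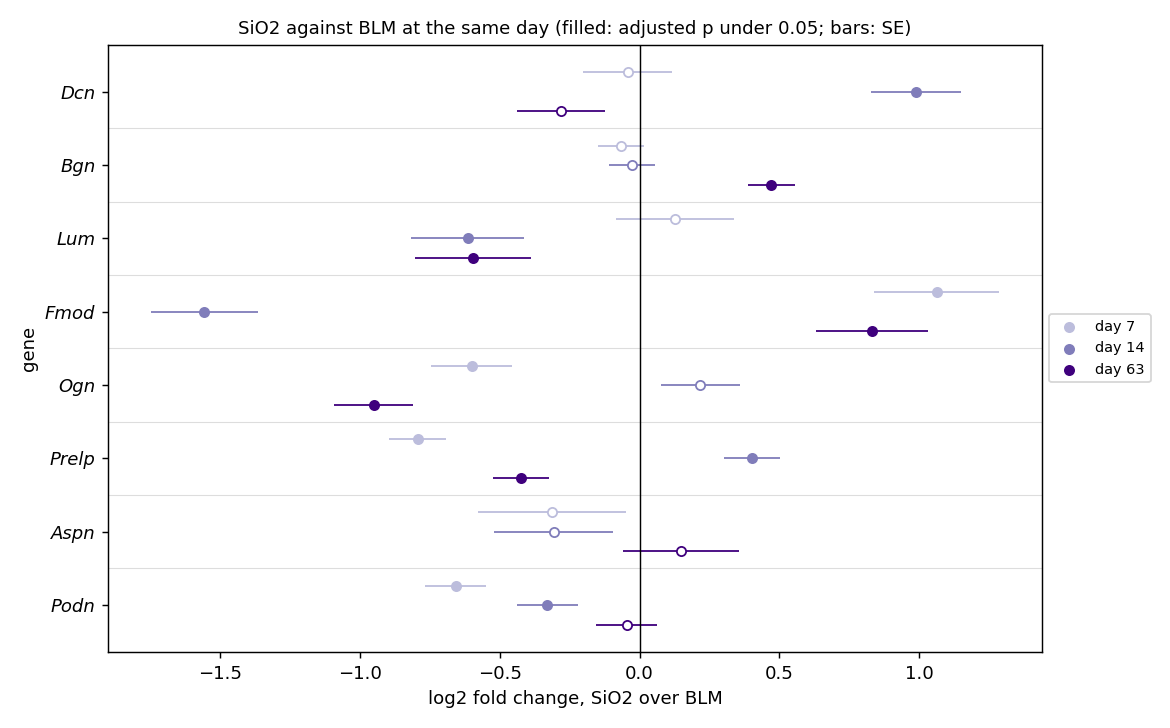
Log2 difference of silica from bleomycin at the same day (horizontal axis, log2 scale, positive where silica is higher) for the 8 genes at days 7, 14 and 63, with bars of 1 SE to each side and filled points for an adjusted p under 0.05. Fmod is at 1.06, -1.56 and 0.83, and Dcn is at 0.99 at day 14.

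The time courses also differed. From day 7 to day 14, 5 genes rose after bleomycin and 0 fell (beside 10% of all genes, 5.2% higher and 4.82% lower), led by Fmod at 2.71 ± 0.21 (adjusted p = 6.85e-10), with Aspn, Lum, Prelp and Bgn. After silica 6 rose and 0 fell (beside 23.3%, 12.2% higher and 11.1% lower), led by Prelp at 1.66 ± 0.10 (adjusted p = 9.58e-13), with Aspn, Ogn, Dcn, Podn and Bgn. The test of the difference between these 2 changes was passed by 4 of the 8 genes, beside 19.2% of all (9.74% higher, 9.47% lower): the silica change was larger than the bleomycin change for Prelp (1.20 ± 0.14), Dcn (1.03 ± 0.23) and Ogn (0.82 ± 0.20) and smaller for Fmod (-2.62 ± 0.29).

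From day 14 to day 63, 7 of the 8 genes changed after bleomycin (beside 32.3% of all genes, 15.4% higher and 16.9% lower). Fmod fell by 1.89 ± 0.20, Podn by 0.85 ± 0.11, Lum by 0.62 ± 0.20 and Bgn by 0.53 ± 0.08 on the log2 scale, while Prelp (0.86 ± 0.10), Ogn (0.69 ± 0.14) and Dcn (0.67 ± 0.16) rose, each toward its untreated mean, and Podn and Prelp past it. The fall of Lum had overlapping libraries and was lost without the second or the third bleomycin day 14 library or the first bleomycin day 63 library (adjusted p 0.093 to 0.134). It was also lost with DESeq2 in place of edgeR (adjusted p = 0.0726) and under total count scaling (0.0546). Over the same interval after silica, 2 fell (beside 3.52% of all genes, 1.53% higher and 2% lower): Podn by 0.57 ± 0.11 (adjusted p = 0.00224) and Dcn by 0.60 ± 0.16 (adjusted p = 0.0299). The Dcn call was lost in 4 of 6 fits with 1 library left out, namely without the first or the third silica day 14 or the first or second silica day 63 library (adjusted p 0.0642 to 0.154). The difference between the 2 changes was passed by 5 genes, beside 18.5% of all (9.7% higher, 8.81% lower): silica change minus bleomycin change was positive for Fmod (2.39 ± 0.28) and Bgn (0.50 ± 0.12) and negative for Dcn (-1.27 ± 0.23), Ogn (-1.17 ± 0.20) and Prelp (-0.83 ± 0.14).

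Within a library, the count of 1 gene per count of another does not depend on scaling and shows where related genes changed unequally. The ratio of Bgn to Dcn, both class I, was 0.151 ± 0.0112 (SD, n = 3) in untreated libraries, 0.477 ± 0.121 at bleomycin day 14 and 0.199 ± 0.0166 at bleomycin day 63. After silica it was 0.228 ± 0.0287 at day 14 and 0.338 ± 0.0523 at day 63. It was thus lowest in untreated libraries (0.139 to 0.160), and no treated library overlapped them. The ratio of Fmod to Prelp, neighbours on chromosome 1, went from 0.0191 ± 0.00603 in untreated libraries to 0.301 ± 0.0160 at bleomycin day 14 and 0.227 ± 0.0815 at silica day 7, and was 0.0452 ± 0.0104 and 0.107 ± 0.00754 at day 63 of bleomycin and silica. The ratio of Aspn to Ogn, neighbours on chromosome 13, was 0.0685 ± 0.00104 in untreated libraries and highest at silica day 63, at 0.190 ± 0.0208. Bleomycin day 14, at 0.167 ± 0.0422, overlapped silica day 63 (0.118 to 0.195 beside 0.172 to 0.212). These ratios compare libraries with each other and are not ratios of protein or of molecules between the genes.

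**Figure D4:**
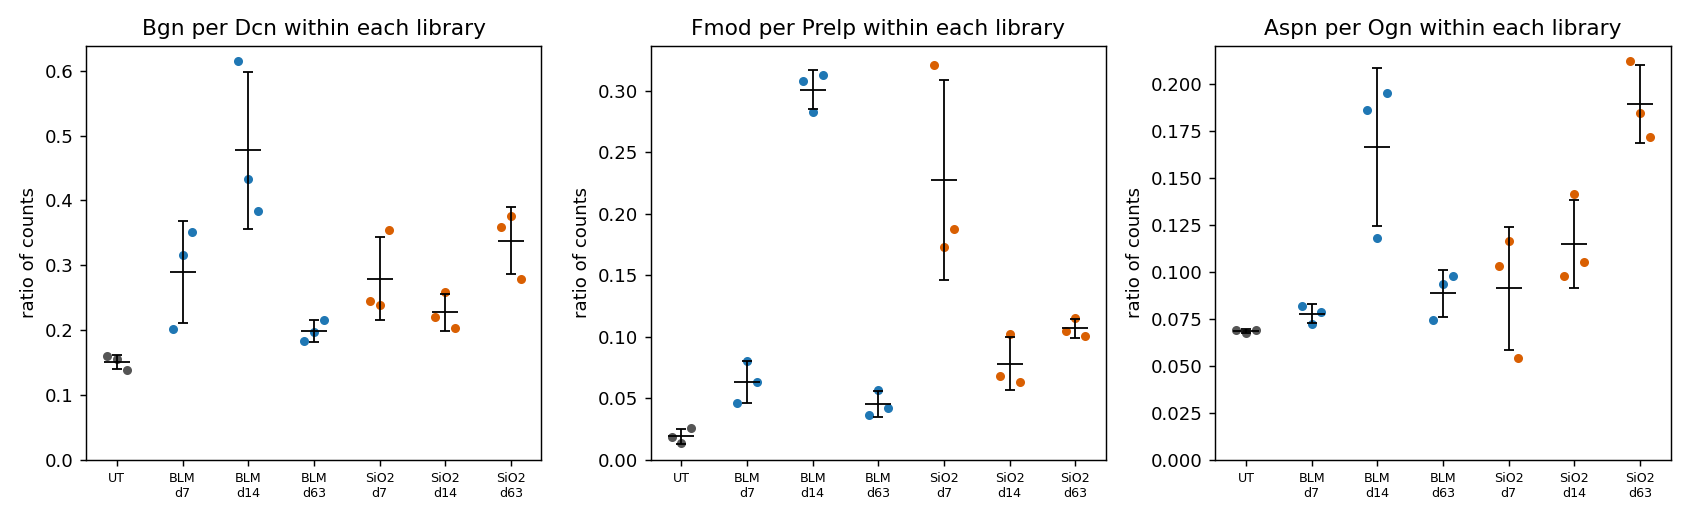
Ratio of the counts of 2 related genes within a library (vertical axes, plain ratio, 1 panel per pair) in the 7 groups (horizontal axis), with a point for each library and lines at the mean and 1 SD to each side (n = 3). The ratio of Bgn to Dcn is 0.139 to 0.160 in untreated and 0.384 to 0.615 in bleomycin day 14 libraries.

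Adventitial and alveolar fibroblast genes moved over the same groups. The sum of 15 adventitial genes was 7047 to 7268 CPM in untreated libraries, 2855 to 4120 at bleomycin day 7, 2270 to 2921 at bleomycin day 14, 6383 to 7872 at bleomycin day 63, and 2166 to 2410, 4738 to 6423 and 3730 to 4273 CPM at silica days 7, 14 and 63. Of these 15, 3 rose and 5 fell, 3 and 7, and 2 and 5 at days 7, 14 and 63 of bleomycin, and 2 and 10, 6 and 3, and 4 and 6 after silica. The list's median log2 difference was -0.04, -0.61 and -0.16 after bleomycin and -0.85, 0.45 and 0.23 after silica, so at days 14 and 63 of silica it was above 0 while the sum was below untreated. Of all tested genes, 31.6%, 39.3% and 11.5% were called after bleomycin and 44.1%, 24.1% and 27.8% after silica. Of 13 alveolar genes, 10, 12 and 6 fell at days 7, 14 and 63 of bleomycin and 12, 9 and 10 after silica, and none rose in any of the 6 comparisons. Of 13 activated fibroblast genes, 13 rose at both bleomycin day 7 and day 14 and 4 at bleomycin day 63. After silica 12, 10 and 9 of them rose at days 7, 14 and 63, and none fell in any of the 6 comparisons. These are bulk libraries, in which fewer cells of a fibroblast type and less RNA of a gene per cell cannot be told apart, and the part of these genes' cell types in the results was not tested.

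Of the 10 other genes of the family listed, 9 were in the files and 4 had enough counts to test. Tsku (tsukushi, a class IV member that binds BMP and TGF-β ligands) rose in 5 of 6 comparisons with untreated, by 1.22 and 0.99 on the log2 scale at bleomycin days 7 and 14 and by 1.84, 0.78 and 0.87 at silica days 7, 14 and 63. Ecm2, which lies next to Aspn, fell in the same 5 comparisons, by 1.63, 1.22, 1.67, 0.46 and 0.56 in that order. Omd (osteomodulin), which lies between Aspn and Ogn, fell in 4 of 6, but with only 2 to 22 counts per library. Podnl1 was not called against untreated, and Epyc, Optc, Chad, Chadl and Nyx were too low to test.

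Among the enzymes that build and sulfate the sugar chains, 30 of 35 listed genes were tested. At days 7, 14 and 63 of bleomycin 4 rose and 4 fell, 10 and 6, and 3 and 3, beside 16.7% and 14.9%, 20.7% and 18.5%, and 6.02% and 5.48% of all genes. After silica 7 rose and 7 fell, 6 and 4, and 6 and 6, beside 23.4% and 20.6%, 13.6% and 10.5%, and 15.3% and 12.5% of all genes, and at silica day 7 the 14 of 30 called were close to the share over all genes. Chsy1, a chondroitin synthase, rose in all 6 comparisons with untreated, by 1.06, 1.56 and 0.48 on the log2 scale at days 7, 14 and 63 of bleomycin and by 2.02, 1.11 and 1.02 after silica. The chondroitin 4-O-sulfotransferase Chst11 rose in 5 of 6, by up to 2.86 at silica day 7, and Csgalnact1, which starts chondroitin chains, rose in the same 5, by up to 2.59. Chst3 and Chst7, both chondroitin 6-O-sulfotransferases, fell in all 6: Chst3 by 0.89 to 2.80 and Chst7 by 1.46 to 2.67 on the log2 scale. Papss2, which makes the sulfate donor, fell in all 6, by 0.33 to 0.90. The list as a whole had a median log2 difference of -0.02 to 0.14, beside 0.01 to 0.04 over all tested genes.

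**Figure D5:**
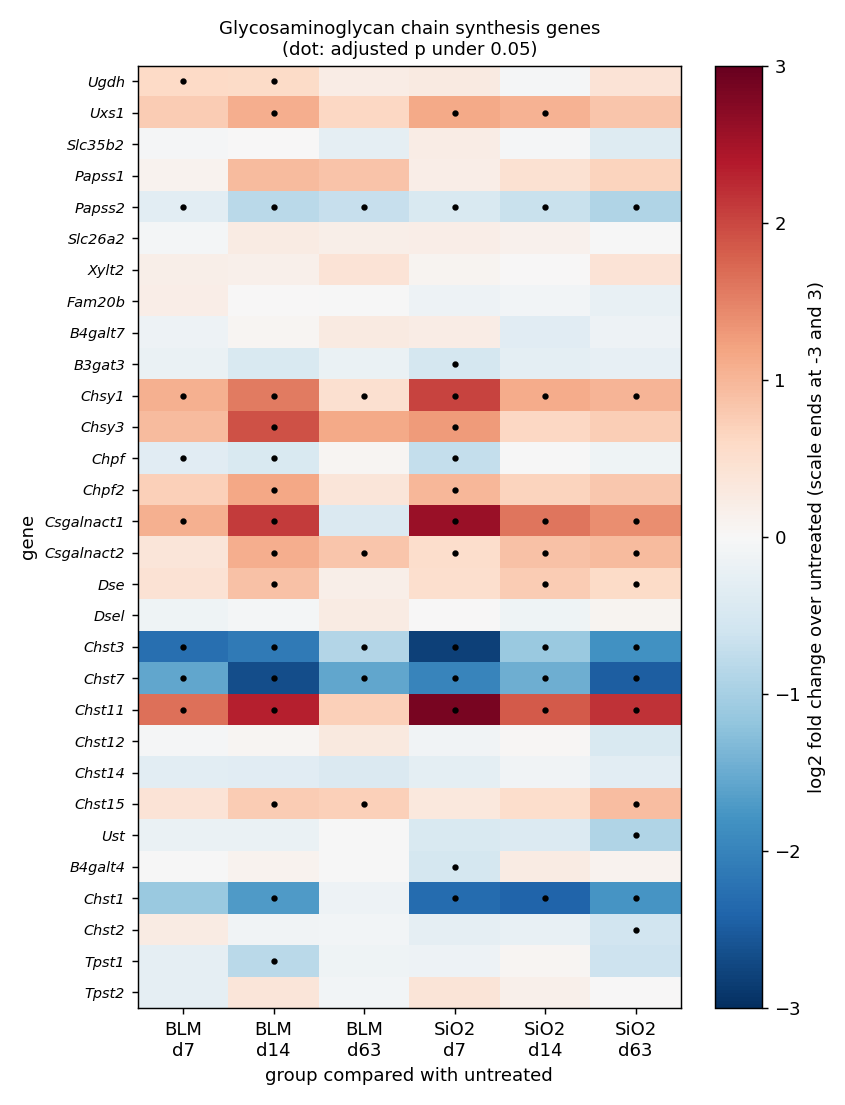
Log2 difference from untreated (color scale, log2) of the 30 tested genes of glycosaminoglycan chain synthesis (rows) in the 6 treated groups (columns), with a dot where the adjusted p is under 0.05 in edgeR's test. Chsy1 is positive and Chst3, Chst7 and Papss2 are negative in all 6 columns.

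Of 15 tested proteases and inhibitors that act on these proteoglycans or on procollagen, 6 rose and 6 fell, 7 and 3, and 3 and 3 at days 7, 14 and 63 of bleomycin (beside 31.6%, 39.3% and 11.5% of all genes called). After silica 8 rose and 6 fell, 7 and 3, and 8 and 5 (beside 44.1%, 24.1% and 27.8%). Bmp1, the proteinase that matures pro-biglycan and procollagen, rose by 0.64 and 1.67 at bleomycin days 7 and 14 and by 2.45, 1.07 and 1.01 at silica days 7, 14 and 63, while at bleomycin day 63 its difference of -0.09 was not called. Pcolce2, an enhancer of that proteinase, fell in all 6 comparisons, by 0.58 to 3.29. Mmp14, a membrane-bound metalloproteinase, and Timp1, a metalloproteinase inhibitor, rose in the 5 comparisons other than bleomycin day 63, by 0.67 to 1.43 and by 2.45 to 3.56, and their differences of 0.04 and 0.35 there were not called.

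Among 20 tested ligands and receptors, 7 rose and 3 fell at bleomycin day 7, 10 and 2 at day 14 and 5 and 2 at day 63, beside 16.7% and 14.9%, 20.7% and 18.5%, and 6.02% and 5.48% of all genes. At days 7, 14 and 63 of silica the counts were 7 and 6, 12 and 1, and 13 and 2, beside 23.4% and 20.6%, 13.6% and 10.5%, and 15.3% and 12.5%. Tgfb1, a ligand of decorin, rose by 2.22 and 2.38 at bleomycin days 7 and 14 and by 2.37, 1.27 and 1.27 after silica, and its difference of 0.75 at bleomycin day 63 was not called. Tlr2, a receptor of soluble biglycan, rose by 1.50, 1.55 and 1.69 at silica days 7, 14 and 63, and its differences of -0.08, 0.67 and 0.73 after bleomycin were not called. Tlr4, the other such receptor, rose at bleomycin days 14 and 63 (0.85 and 0.99) and at silica days 14 and 63 (0.66 and 1.32).

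Most of the tested collagens and other fibril partners rose in the comparisons other than bleomycin day 63. Of 22 tested, 16 rose and 1 fell at bleomycin day 7, 17 and 2 at day 14, and 6 and 1 at day 63, and after silica the counts were 16 and 5, 19 and 1, and 16 and 2. Of all tested genes, 16.7%, 20.7% and 6.02% were called higher after bleomycin and 23.4%, 13.6% and 15.3% after silica. The medians were 1.26, 1.98 and 0.14 after bleomycin and 1.87, 1.21 and 0.87 after silica on the log2 scale. Col1a2, a chain of collagen I and the gene whose regulatory sequence drives the sorting transgene, rose by 1.18 and 2.01 at bleomycin days 7 and 14 and by 2.01, 1.40 and 1.08 after silica. Col5a2, a chain of the fibril-nucleating collagen V, rose in all 6, by 0.74 to 3.05. Of 15 tested large and cell-surface proteoglycans, 9 rose and 2 fell, 7 and 1, and 1 and 1 at days 7, 14 and 63 of bleomycin and 7 and 2, 9 and 1, and 7 and 2 after silica, beside the same shares of all genes, among them Sdc1 (syndecan-1), higher by 3.76 at bleomycin day 14 and by 4.22 at silica day 63.

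Genes with the pattern most like each member were taken as the 3 with the highest Pearson correlation of log2 CPM over the 21 libraries, among 6334 genes with a mean of at least 10 CPM. The libraries share their groups, so a high value describes a like course over the 7 groups. Ogn had the closest match, with Tmem119 at 0.97, Zbtb20 at 0.96 and Stim1 at 0.95. Prelp was nearest Plxdc2 (0.96), Mamdc2 (0.95) and Adarb1 (0.95), and Fmod was nearest Gdnf (0.93), Ctsa (0.91) and Iah1 (0.90). Dcn was nearest Dclre1c (0.90), Lepr (0.88) and Gstt1 (0.87), and Bgn was nearest Adamts2, Ltbp3 and Glb1l, each at 0.87. Aspn was nearest Brk1 (0.86), Pbxip1 (0.86) and Slc6a6 (0.84), Podn was nearest Atp1b1 (0.81), Mrc2 (0.81) and Vstm4 (0.80), and Lum had the loosest, with Pik3r1 (0.79), Arf2 (0.78) and Herc2 (0.75).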

How the data were processed

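The 21 libraries were sequenced as tags from the 3′ ends of polyadenylated RNA (3′SAGE-seq, Ion Proton), amplified from equal numbers of sorted cells, per the labels' protocols. The authors deposited 1 file of raw counts per gene symbol for each library, with no normalization. Bowtie2 2.2.5 and mm10 are named in the submitters' processing notes, and the counter, annotation, strand setting and filter are not given in the sources used here, so overlapping genes are uncertain. Groups came from the sample titles. The members and gene lists were chosen with earlier results of these data known. Counts were filtered with filterByExpr by group (11669 of 23204 symbols kept, 99.7% of counts), scaled by trimmed mean (TMM) and fitted with edgeR 4.0.16 (R 4.3.3) in 1 quasi-likelihood model of 7 groups with 14 residual degrees of freedom. Benjamini-Hochberg adjustment ran over all tested genes, and 15 comparisons were made. The tests were checked on simulated data. The biological coefficient of variation was 12.0%, no 2 libraries held identical counts, and replicates of every group differed by more than sampling noise. The labels do not say whether replicates came from separate mice, so p-values measure the spread between these samples. Alternatives were other scalings, no filter, DESeq2 1.42.0, limma-voom 3.58.1, a replicate block, only the groups compared, and leaving out each library. Named genes were the 8 members, every tested other family gene, up to 4 genes per list and comparison with the smallest adjusted p under 0.05, and the 3 nearest patterns per member. RefSeq promoter windows of GRCm38.p6 were searched for motifs on both strands. Kera is not analysed here.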

Additional observations from a re-analysis of the deposited data

Results flagged for a closer look

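For 5 of the 8 genes the change over time differed between silica and bleomycin by a test of the difference itself, within edgeR's fit over all groups with Benjamini-Hochberg adjustment over all genes. From day 7 to day 14 the silica change minus the bleomycin change was 1.20 on the log2 scale for Prelp (adjusted p = 3.38e-07), -2.62 for Fmod (1.02e-07), 0.82 for Ogn (0.00366) and 1.03 for Dcn (0.00119). From day 14 to day 63 it was -0.83 for Prelp (5.98e-05), 0.50 for Bgn (0.0024), 2.39 for Fmod (1.67e-07), -1.17 for Ogn (5.31e-05) and -1.27 for Dcn (9.52e-05). Fmod, Ogn, Prelp and Dcn therefore had opposite signs in the 2 intervals, which share the day 14 libraries.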

How the results depend on the processing

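Of 120 member differences (8 genes in 15 comparisons), 75 were called, and 60 of these kept their call and direction under all alternatives run. The other 15 lost the call under at least 1 alternative, none of the 75 changed direction, and 12 of the 45 differences not called were called under some alternative. Signs of uncalled differences close to 0 changed. For Dcn at silica day 14 against untreated the log2 difference was -0.0388 under upper quartile scaling and -0.00311 under total count scaling, beside 0.0406. For Lum in the day 14 to 63 test of unequal change it was -0.0267 and -0.0611, beside 0.0186. Leaving out 1 library gave log2 differences against untreated of -0.0564 to 0.107 for Aspn at bleomycin day 63, -0.0365 to 0.0945 for Dcn and -0.161 to 0.0595 for Aspn at silica day 14. Between agents it gave -0.20 to 0.19 for Dcn, -0.12 to 0.33 for Lum and -0.575 to 0.0332 for Aspn at day 7, -0.0635 to 0.0183 for Bgn at day 14 and -0.172 to 0.0924 for Podn at day 63. Between days it gave -0.0903 to 0.469 for Fmod from silica day 7 to 14, -0.328 to 0.0146 for Aspn from bleomycin day 14 to 63, and -0.0637 to 0.00469 for Bgn and -0.0101 to 0.0597 for Prelp from silica day 14 to 63. In the tests of unequal change it gave -0.0135 to 0.11 for Bgn and -0.34 to 0.27 for Aspn from day 7 to 14, and -0.17 to 0.24 for Lum from day 14 to 63.

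The number of the 8 genes called moved by over 1.5 times in 4 comparisons. At bleomycin day 63 against untreated it was 5 with only the groups compared and 1 to 4 with 1 library left out (1 without the third bleomycin day 63 library), beside 3. At silica day 63 against untreated it was 3 to 5 with 1 left out (3 without the second silica day 63 library), and between agents at day 14 it was 3 to 4. From silica day 14 to 63 it was 5 with no filter on low counts, 4 with only the groups compared and 1 to 3 with 1 library left out, beside 2. Over all genes, leaving out 1 library gave 795 to 1219 calls at bleomycin day 63 against untreated (1343 with all), 661 to 1006 from bleomycin day 7 to 14 (1169) and 201 to 325 from silica day 14 to 63 (411).

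Scaling moved the share of calls that were higher by over 10 percentage points in some comparisons, such as 47.7% to 60.1% from bleomycin day 14 to 63 under total counts and 56.4% to 44.8% at silica day 14 against untreated under upper quartiles. Same-numbered replicates did not deviate together on average (mean correlation of deviations -0.0055, beside 0.0027 for other numbers), and the labels do not say that the numbers pair samples. A correlation over all tested genes can miss pairing that moves few of them. With the replicate block the 8 genes gave 6 calls at silica day 7 against untreated, beside 7, with Bgn at 0.20 (adjusted p = 0.0558). Depth limits Fmod in untreated libraries, Aspn and Omd, which rest on few counts.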
